A study of Mus musculus with 12 samples.

Results

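H19, Igf2, Igf2r, Cdkn1c, Dlk1, Meg3, Peg3, Mest and Grb10 are 9 imprinted genes, taken as named symbols from the 33219 features of a gene count table by matching Ensembl identifiers to GENCODE M21. They were chosen by name with measured values in view: H19 was listed because it was lower in A159V than in WT tumor cells, so its genotype differences are given as a description with no test. The samples were tumor cells from subcutaneous tumors of MC38, a mouse colon cancer line, grown in young adult C57BL/6 mice. WT denotes the unedited line, and A159V denotes cells with a homozygous CRISPR-Cas9 knock-in of the A159V mutation in Rac1, a small GTPase. Mice received anti-PD1, an antibody that blocks an inhibitory receptor of T cells, or IgG isotype control. The 4 groups of 3 mice were, for WT, the IgG replicates 1, 2 and 4 and the anti-PD1 replicates 1, 2 and 3, and for A159V, the IgG replicates 1, 2 and 5 and the anti-PD1 replicates 1, 2 and 3. Tumor cells were purified with magnetic beads that remove other cells, and polyadenylated RNA was sequenced. The labels do not name the A159V clone, clone 9 is taken here as the default among several, and the mutation and other differences of a single clone cannot be told apart.

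Imprinted genes are transcribed mainly from the allele of a single parent, as set by DNA methylation laid down in the germ line. H19 is a maternally expressed long noncoding RNA and the host of miR-675, and it shares enhancers with its paternally expressed neighbour Igf2. Several genes of the group act on growth: Igf2 encodes a fetal growth factor, Igf2r a receptor that carries IGF2 to lysosomes, Grb10 an adaptor that damps insulin receptor signaling, and Cdkn1c the cell cycle inhibitor p57. Many imprinted genes are abundant in the embryo and placenta and low in most adult tissue. Counts per gene do not separate the parental alleles, so imprinting itself was not measured.

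Each sample held between 14053582 and 21949942 counts. The group medians under IgG were 19032609 in WT and 20199005 in A159V, and under anti-PD1 16839346 and 18700827. A floor of 3 counts equalled 0.144 to 0.201 CPM (counts scaled to a common library size by TMM), a limit that covers counting error only. Replicates correlated at r between 0.964 and 0.992 across genes in log2 CPM, and 2 libraries stood apart from their groups. The correlation of WT IgG 1 with the other WT IgG samples was 0.975 and 0.964, against 0.985 between those samples. A159V IgG 5 correlated with its group at 0.972 and 0.973, against 0.992 for the remaining pair. Rac1 mRNA, the edited gene, was present in every sample, at 451 ± 55.5 CPM in WT under IgG, 423 ± 25.6 in WT under anti-PD1, 420 ± 65.1 in A159V under IgG and 372 ± 35.4 in A159V anti-PD1 (mean ± SD, n = 3). Gene counts carry no information on the Rac1 allele.

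MC38 cells derive from colon, and of 10 epithelial markers 3 had enough counts to be tested. The summed level of the 10 was 2.62 to 8.11 CPM per sample, and Epcam had 4 counts over all samples, so classical epithelial markers were near absent in these libraries. Genes listed as markers of other cell types were present and differed between groups. Which cells expressed them, the tumor cells included, was not tested. The sum of 12 fibroblast markers was 1270, 579 and 1000 CPM in WT under IgG, 804, 1080 and 1680 in WT under anti-PD1, 271, 319 and 251 in A159V under IgG, and 270, 299 and 366 in A159V under anti-PD1. Thus each WT sample exceeded each A159V sample, with Col3a1 the most abundant of these genes in WT. The sum of 10 skeletal muscle markers was high in WT anti-PD1 2 (74.6 CPM) and WT anti-PD1 3 (128), next highest in WT IgG 1 (21), and between 4.39 and 12.3 in the other samples. The muscle-defining genes Myod1, Myog, Myf5 and Pax7 had 9, 4, 1 and 1 counts over the 12 samples. Sums of leukocyte markers were 34.2 to 39.1 CPM in WT under IgG, 50.7 to 75.3 in WT under anti-PD1 and 46.7 to 63.8 in the A159V samples, led by Cd68.

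**Figure D1:**
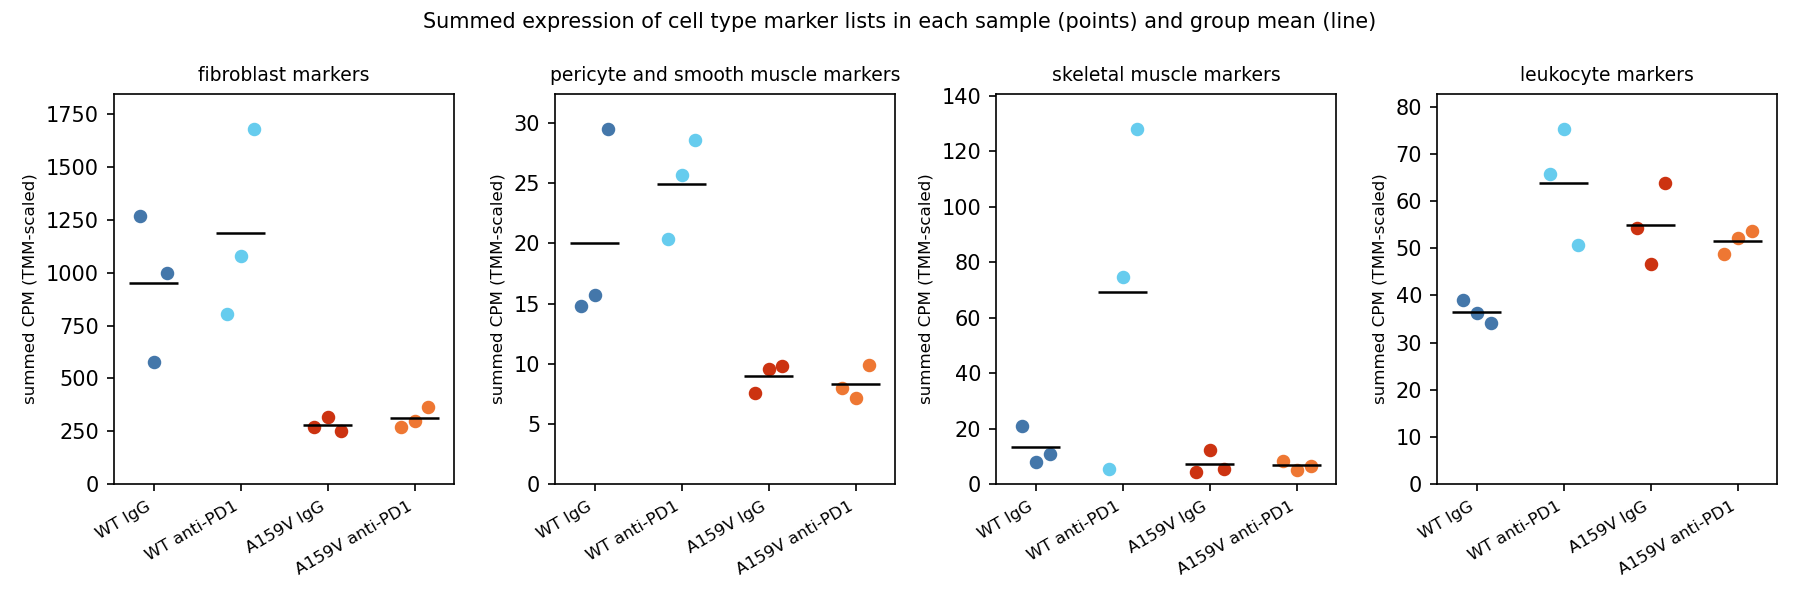
Summed CPM (vertical axis, scaled by TMM) of the fibroblast, pericyte and smooth muscle, skeletal muscle and leukocyte marker lists in each sample, where points are samples, lines are group means, and n = 3 mice a group. Fibroblast sums ran from 579 to 1680 CPM in WT and from 251 to 366 in A159V.

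Of the 9 genes, 6 had enough counts for testing (H19, Igf2r, Cdkn1c, Meg3, Peg3 and Grb10), while Igf2, Mest and Dlk1 did not. A call needed an absolute log2 fold change over 0.3 and a p, adjusted by Benjamini-Hochberg over 14340 genes, below 0.05 by the quasi-likelihood test of edgeR. Apart from H19, the calls between genotypes under IgG were Igf2r and Grb10, higher in A159V, and Meg3, lower. In that comparison 28.0% of all tested genes were called, 15.6% higher and 12.4% lower. Between genotypes under anti-PD1 the call was Peg3, lower in A159V, where 21.4% of all genes were called, 11.2% higher and 10.2% lower. Both comparisons thus moved a large share of all genes, and calls among the imprinted genes are to be read against these shares. In WT tumors, anti-PD1 versus IgG gave 90 called genes (0.628%), none among the 9, with 3937 genes at an unadjusted p under 0.05. DESeq2 called 1478 and voom 188, and edgeR called 1 without WT IgG 1, 601 without A159V IgG 5 and 3458 without WT IgG 4. In A159V tumors it gave 0 calls (0%), with 521 genes at an unadjusted p under 0.05, 2 calls by DESeq2 and 0 by voom. The difference between genotypes in the anti-PD1 response gave 1 call (0.00697%), with 2517 genes at an unadjusted p under 0.05, 295 by DESeq2 and 1 by voom, and edgeR called 1182 without WT IgG 4.

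H19 (ENSMUSG00000000031) lies on the minus strand of chromosome 7 at chr7:142575529-142578143 (mm10) and is annotated as a lincRNA. Its level was 4.37, 3.24 and 12 CPM in WT IgG 1, 2 and 4, and 2.48, 5.3 and 4.12 CPM in WT under anti-PD1. In A159V it was 0.264, 1.34 and 0.319 CPM in IgG samples 1, 2 and 5, and 0.545, 0.425 and 0.445 CPM under anti-PD1. Every WT sample therefore lay above every A159V sample, the highest WT value was that of WT IgG 4, and A159V IgG 2 was the highest A159V sample. From highest to lowest, group means were 6.55 ± 4.79 CPM in WT under IgG, 3.97 ± 1.41 in WT under anti-PD1, 0.643 ± 0.609 in A159V under IgG and 0.472 ± 0.0641 in A159V under anti-PD1, with overlap between treatments within each genotype. As raw counts, the A159V samples held 5, 28, 6, 10, 8 and 8 H19 counts against 48 to 240 in WT samples, all above the 3 counts taken as detectable.

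The fitted log2 fold change of H19, A159V over WT, was -3.32 (SE 0.605) under IgG and -3.05 (SE 0.642) under anti-PD1, a description of the difference that chose the gene. Without WT IgG 1 or without A159V IgG 5 the value under IgG was -3.61 or -3.08, and leaving out other samples in turn moved it between -4.46 (without A159V IgG 2) and -2.53 (without WT IgG 4). Under anti-PD1 it was -2.43 without the 3 libraries highest in skeletal muscle markers. Response to anti-PD1 was not used in the choice. In WT tumors the log2 fold change of anti-PD1 over IgG was -0.74 (SE 0.518, edgeR adjusted p = 0.364), and without WT IgG 4 it was 0.05. In A159V tumors it was -0.47 (SE 0.725, edgeR adjusted p = 1), and 0.68 without A159V IgG 2. The responses of the genotypes differed by 0.27 (SE 0.917, edgeR adjusted p = 0.889), which turned to -0.52 without WT IgG 4, to -0.09 without A159V IgG 1 and to -0.00 without A159V IgG 5. No effect of anti-PD1 on H19 was therefore detected at this depth and spread.

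Fewer cells of a type that expresses H19 and less H19 RNA per cell cannot be told apart in these bulk samples. Fibroblast markers separated the genotypes in the same direction as H19, with 9 of the 12 called lower in A159V under IgG and 6 under anti-PD1, and median log2 fold changes of -2.68 and -1.62. Of all genes, 12.4% and 10.2% were called lower, and 6 of the 9 and 3 of the 6 calls were kept without the 3 libraries high in skeletal muscle markers. The sum of pericyte and smooth muscle markers was 14.8, 15.7 and 29.5 CPM in WT under IgG, 20.4, 25.7 and 28.6 in WT under anti-PD1, 7.56, 9.56 and 9.83 in A159V under IgG, and 7.95, 7.18 and 9.85 in A159V under anti-PD1. Both sums thus separated the genotypes, while among WT samples their order was not that of H19. Within the 6 WT samples Pearson's r with H19 in log2 CPM was positive for 9 of the 12 fibroblast markers (median 0.175, from -0.348 to 0.523) and for 4 of 6 tested pericyte and smooth muscle markers (median 0.156, from -0.0259 to 0.701), beside a median of -0.00254 over all genes. Within the 6 A159V samples the medians were 0.202 and -0.0687, beside 0.0603. For the 6 tested skeletal muscle markers r was positive for 5 in WT (median 0.2, from -0.158 to 0.314). In A159V it was positive for all 6 (median 0.836, from 0.0316 to 0.96). A159V IgG 2, the A159V sample highest in H19, also had the highest skeletal muscle sum of the A159V samples (12.3 CPM). That sample held 28 H19 counts against 5 to 10 in the other A159V samples, and 17 Tnnt3 counts against 0 to 3. No r was computed without it, so a relation across the other A159V samples was not shown. Of 8 pericyte and smooth muscle markers 6 were tested, with 2 lower in A159V under IgG, and 1 higher and 3 lower under anti-PD1. Acta2, the higher gene, had a log2 fold change of 2.20 (edgeR adjusted p = 0.0145), a call lost without WT anti-PD1 3 or A159V anti-PD1 3 (adjusted p up to 0.0755) and without the 3 libraries high in skeletal muscle markers (1.91, edgeR adjusted p = 0.106). Cspg4 and Rgs5 fell in A159V in both comparisons, with log2 fold changes of -3.27 and -4.49 under IgG (edgeR adjusted p = 0.00456 and 0.00206) and -4.11 and -3.56 under anti-PD1 (edgeR adjusted p = 0.00215 and 0.00721). Without the 3 libraries high in skeletal muscle markers the last was -3.41 (edgeR adjusted p = 0.101). The part of these cell types in the H19 difference was not tested.

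H19 is the host gene of miR-675, and the RefSeq table (GRCm38.p6) places its hairpin at chr7:142577064-142577147 on the minus strand, inside H19. The mature sequences are shown because they are the known small RNA product of the gene that differed, 5′ to 3′, with the seed (bases 2 to 8) in capitals.
mmu-miR-675-5p: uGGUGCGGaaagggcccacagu
mmu-miR-675-3p: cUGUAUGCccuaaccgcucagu
The arms have different seeds. Mir675 had 0 counts in each of the 12 samples. Libraries of polyadenylated RNA do not capture mature miRNAs, and miR-675 was not measured here. How reads that overlap both H19 and the hairpin were assigned is not stated.

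**Figure D2:**
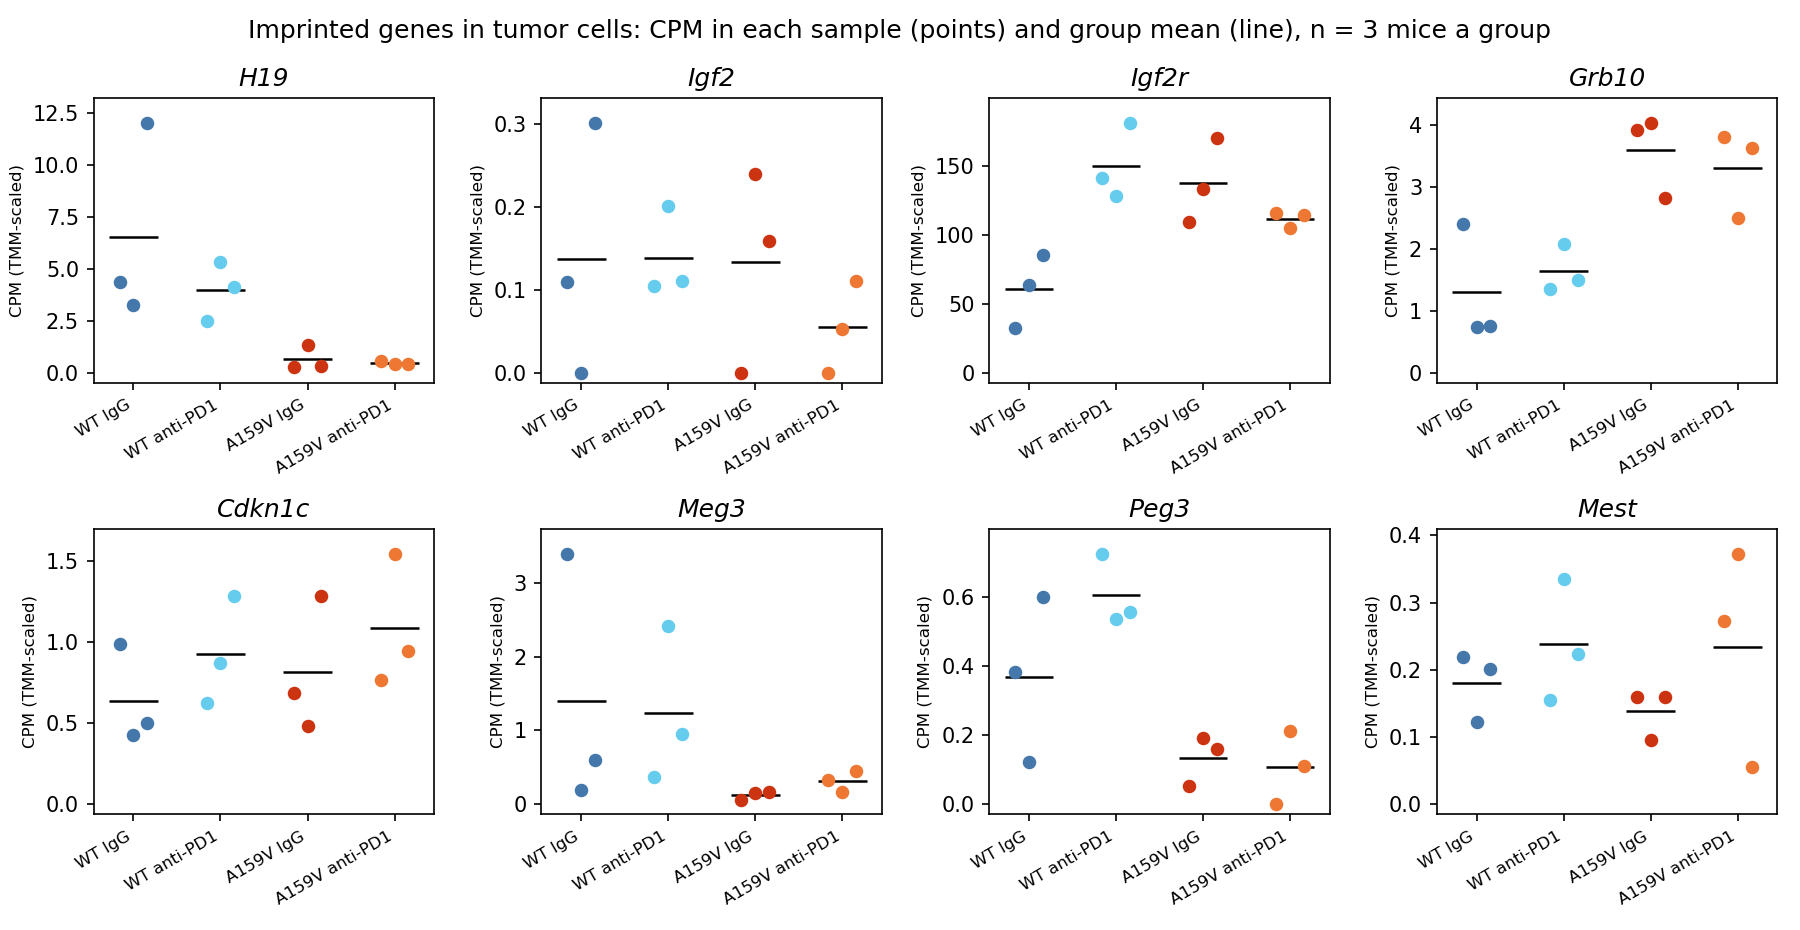
CPM (vertical axis, scaled by TMM) of 8 imprinted genes in each sample, by group, where points are samples, lines are group means, and n = 3 mice a group. H19 ran from 2.48 to 12 CPM in WT and from 0.264 to 1.34 CPM in A159V samples.

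Igf2, the reciprocally imprinted neighbour of H19, was scarcely detected. The gene (ENSMUSG00000048583; chr7:142650766-142666816, minus strand) had 26 counts over the 12 samples: 2, 0 and 6 in WT under IgG, 2, 3 and 2 in WT under anti-PD1, 0, 5 and 3 in A159V under IgG, and 0, 1 and 2 in A159V under anti-PD1. Most samples were at or under 3 counts, so no fold change is given. Per kilobase of exon, Igf2 reached 0.0239 CPM in WT under IgG and 0.0233 in A159V under IgG, against 2.66 and 0.261 CPM per kilobase for H19. A higher Igf2 level in the samples with low H19 was not detectable at this depth.

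Igf2r was the most abundant of the 9 genes, at 6.49 to 16.1 CPM per kilobase of exon in the group means. It encodes the receptor that removes IGF2 from the cell surface (ENSMUSG00000023830; chr17:12682406-12769664, minus strand). The level was 32.1, 63.4 and 85.7 CPM in WT under IgG, 141, 128 and 181 in WT under anti-PD1, 109, 133 and 170 in A159V under IgG, and 116, 105 and 114 in A159V under anti-PD1. The WT IgG samples were thus the lowest of all 12, and the other groups ranged from 105 to 181 CPM. Between genotypes under IgG, Igf2r rose in A159V by a log2 fold change of 1.19 (SE 0.28, edgeR adjusted p = 0.00848). Fitted to the IgG groups alone the change was 1.12 (edgeR adjusted p = 0.0612). Without WT IgG 1 it was 0.82 (edgeR adjusted p = 0.0172), and without A159V IgG 5 it was 0.93 (edgeR adjusted p = 0.0303).

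Anti-PD1 over IgG in WT gave a log2 fold change of 1.31 for Igf2r (SE 0.281, edgeR adjusted p = 0.0544), which missed the threshold although the groups did not overlap. It passed in DESeq2 (adjusted p = 0.00112) and voom (adjusted p = 0.0424). In edgeR it passed in 2 of the 12 fits without 1 sample, those without WT IgG 4 (1.65, adjusted p = 0.00825) and without A159V IgG 5 (1.30, adjusted p = 0.0371). It missed in the others, as without WT IgG 1 (1.00, adjusted p = 0.098), with an edgeR adjusted p up to 0.184 (without WT anti-PD1 3). Without the 3 libraries high in skeletal muscle markers the value was 0.89. In A159V the change was -0.30 (SE 0.275, edgeR adjusted p = 1). The difference between these responses was -1.61 (SE 0.392, edgeR adjusted p = 0.151), and -1.95 without WT IgG 4 (edgeR adjusted p = 0.0318), and DESeq2 called it (-1.61, adjusted p = 0.0127). Under anti-PD1 the A159V samples all lay below the WT samples, with a log2 fold change of -0.42 (SE 0.276, edgeR adjusted p = 0.295), and of -0.51 when fitted to those groups alone (edgeR adjusted p = 0.00621).

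Airn, the paternally expressed antisense RNA that silences Igf2r in cis, overlaps Igf2r on the opposite strand (chr17:12741311-12860136). Its level was 2.24, 2.75 and 4.62 CPM in WT under IgG, 4.87, 4.76 and 8.13 in WT under anti-PD1, 0.582, 0.672 and 1.49 in A159V under IgG, and 1.58, 1.33 and 0.834 in A159V under anti-PD1. All A159V samples were below all WT samples. Airn fell in A159V under IgG (log2 fold change -1.81, SE 0.418, edgeR adjusted p = 0.00753) and under anti-PD1 (-2.24, SE 0.403, edgeR adjusted p = 0.00211). The strand setting of the counting is not stated, so reads from the shared interval cannot be told apart between Igf2r and Airn.

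Grb10 (ENSMUSG00000020176; chr11:11930508-12038683, minus strand), the adaptor that binds the insulin and IGF1 receptors, was higher in A159V. It measured 2.4, 0.734 and 0.753 CPM in WT under IgG, 1.35, 2.08 and 1.5 in WT under anti-PD1, 3.91, 4.03 and 2.82 in A159V under IgG, and 3.81, 2.5 and 3.62 in A159V under anti-PD1. Every A159V sample exceeded every WT sample, and WT IgG 1 was the highest WT sample. Under IgG Grb10 rose by a log2 fold change of 1.46 (SE 0.406, edgeR adjusted p = 0.0187), and by 2.19 without WT IgG 1. That call was lost without WT IgG 2 (1.12, adjusted p = 0.0862), WT IgG 4 (1.18, 0.0512), A159V IgG 1 (1.40, 0.053) or A159V IgG 2 (1.37, 0.0581), and in a fit to the IgG groups alone (1.37, 0.103), all in edgeR. Under anti-PD1 the log2 fold change was 1.02 (SE 0.402, edgeR adjusted p = 0.0875), and it passed the threshold without WT IgG 1 (0.95, edgeR adjusted p = 0.0194) and in a fit to the anti-PD1 groups alone (0.94, edgeR adjusted p = 0.0177). Anti-PD1 over IgG gave 0.33 in WT (edgeR adjusted p = 0.637) and -0.12 in A159V (edgeR adjusted p = 1), which turned to 0.05 without A159V anti-PD1 2.

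Cdkn1c (ENSMUSG00000037664; chr7:143458339-143461050, minus strand) showed no difference beyond its spread. Its means were 0.638 ± 0.302 CPM in WT under IgG, 0.924 ± 0.333 in WT under anti-PD1, 0.814 ± 0.413 in A159V under IgG and 1.08 ± 0.407 in A159V under anti-PD1, from 7 to 29 counts a sample. The genotype log2 fold changes were 0.34 (SE 0.485, edgeR adjusted p = 0.633) and 0.23 (SE 0.46, edgeR adjusted p = 0.755), with overlapping groups, and turned to -0.21 without A159V IgG 5 and to -0.10 without A159V anti-PD1 2. Phlda2, a placental growth restrictor in the same maternally expressed cluster (chr7:143501545-143503150), behaved otherwise. It measured 0.437, 0.428 and 0.401 CPM in WT under IgG, 1.55, 0.335 and 1.06 in WT under anti-PD1, 4.39, 3.31 and 4.46 in A159V under IgG, and 3.87, 3.19 and 3.23 in A159V under anti-PD1. Phlda2 rose in A159V by a log2 fold change of 3.24 under IgG (SE 0.411, edgeR adjusted p = 0.000242) and 1.76 under anti-PD1 (SE 0.371, edgeR adjusted p = 0.00526). Genotypes did not overlap, and without the 3 libraries high in skeletal muscle markers the second value was 1.09 (edgeR adjusted p = 0.138).

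Dlk1, an atypical Notch ligand (ENSMUSG00000040856; chr12:109452823-109463336, plus strand), had 0 counts in every sample, which allows up to 0.144 to 0.201 CPM. Its maternally expressed noncoding neighbour Meg3 (ENSMUSG00000021268; chr12:109541001-109571726, plus strand) was detected at 3.39, 0.184 and 0.602 CPM in WT under IgG and 0.362, 2.41 and 0.947 in WT under anti-PD1. In A159V it was 0.0529, 0.144 and 0.159 CPM under IgG and 0.327, 0.159 and 0.445 under anti-PD1. WT IgG 1 and WT anti-PD1 2 were high, with 62 and 36 counts, while A159V IgG held 1, 3 and 3 counts. The log2 fold change under IgG was -3.48 (SE 1.06, edgeR adjusted p = 0.0275). It was -1.77 without WT IgG 1 (edgeR adjusted p = 0.205), -3.14 without A159V IgG 1 (0.0881) and -3.63 without A159V IgG 2 (0.0738), and voom gave -2.54 (adjusted p = 0.115). Under anti-PD1 the value was -1.95 (SE 0.937, edgeR adjusted p = 0.155), and -2.02 without WT IgG 1 (edgeR adjusted p = 0.0444). Both high samples were among the 3 highest in skeletal muscle markers. Without those 3 libraries, a choice made after seeing the data, the change was -1.76 under IgG (edgeR adjusted p = 0.145) and -0.28 under anti-PD1 (edgeR adjusted p = 0.906), and the part of muscle cells was not tested. Anti-PD1 over IgG gave -0.21 in WT (SE 0.795, edgeR adjusted p = 0.889), which turned to 1.56 without WT IgG 1 and to 0.25 without WT anti-PD1 1.

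The paternally expressed genes Peg3 and Mest were low. Peg3, a zinc finger gene (ENSMUSG00000002265; chr7:6703892-6730431, minus strand), measured 0.382, 0.122 and 0.602 CPM in WT under IgG, 0.725, 0.536 and 0.557 in WT under anti-PD1, 0.0529, 0.192 and 0.159 in A159V under IgG, and 0, 0.213 and 0.111 in A159V under anti-PD1. The genotypes did not overlap under anti-PD1 and overlapped under IgG. Its log2 fold change was -2.42 under anti-PD1 (SE 0.718, edgeR adjusted p = 0.0302) and -1.43 under IgG (SE 0.72, edgeR adjusted p = 0.154). The call under anti-PD1 was lost in edgeR without WT anti-PD1 1 (-2.26, adjusted p = 0.0909), WT anti-PD1 2 (-2.49, 0.0606), WT anti-PD1 3 (-2.47, 0.0768), A159V anti-PD1 1 (-1.86, 0.0889) or A159V anti-PD1 3 (-2.42, 0.0953), and without the 3 libraries high in skeletal muscle markers (-2.72, 0.19). The A159V anti-PD1 samples held 0, 4 and 2 Peg3 counts. Mest (ENSMUSG00000051855; chr6:30723547-30748465, plus strand), of the hydrolase fold family, had 43 counts in all, 1 to 7 a sample, too few for a test.

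A longer list held 76 imprinted genes, the 9 included, of which 72 were in the table, 8 had 0 counts throughout and 45 were tested. Under IgG 11 were called higher and 11 lower in A159V, with H19, chosen for that direction, among the latter. The background was 15.6% of all genes higher and 12.4% lower. Under anti-PD1 7 were called higher and 11 lower, H19 again among the latter, against 11.2% and 10.2%. With the 9 genes left out, 39 were tested, with 9 higher and 9 lower under IgG and 7 higher and 9 lower under anti-PD1. Scaling by RLE or upper quartiles moved the median of all genes from 0.018 to -0.062 or -0.125 under IgG, and from 0.0642 to -0.00343 or -0.0312 under anti-PD1. With it the split of the imprinted genes became 9 higher and 11 lower (RLE) or 7 and 11 (upper quartiles) under IgG, and 6 and 12 or 5 and 12 under anti-PD1. With TMM the median log2 fold change of the list was 0.129 under IgG and -0.161 under anti-PD1, beside 0.018 and 0.0642 for all genes, and 25 and 19 of the 45 had a positive sign. Without WT IgG 1 or without A159V IgG 5, 17 or 23 imprinted genes were called under IgG and 21 or 19 under anti-PD1. Under IgG 13 were called without A159V IgG 1 and 14 without A159V IgG 2. Imprinted genes thus differed between genotypes in both directions, as did genes at large. With TMM the called share of the list exceeded that of all genes in each direction. The list was written with earlier results of these data known, so this is a description and not a test. No imprinted gene was called for anti-PD1 versus IgG by the edgeR test as described above. In WT, edgeR called 3 with no filter on low counts, 16 with a replicate block, 13 without WT IgG 4 and 5 without A159V IgG 5. No other sample shares a replicate number with WT IgG 4 or A159V IgG 5, so the block takes both out of the comparisons. In WT 16 had an unadjusted p under 0.05, with 4 called by DESeq2 and 2 by voom, and in A159V the same counts were 1, 0 and 0. For the difference of the responses they were 10, 2 and 0, and edgeR called 1 with no filter, 10 with the replicate block and 5 without WT IgG 4.

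Among the imprinted genes higher in A159V, 6 of the 11 under IgG kept their call whichever sample was left out: Igf2r, Phlda2, Asb4, Gatm, Htr2a and Dhcr7. Asb4, a component of a ubiquitin ligase, measured 0.954 to 1.47 CPM in WT under IgG and 4.04 to 7.49 in A159V under IgG, and rose by log2 fold changes of 2.37 under IgG and 1.76 under anti-PD1 (edgeR adjusted p = 0.000264 and 0.00138). Dhcr7, an enzyme of cholesterol synthesis, rose under IgG by 0.87 (edgeR adjusted p = 0.000392). Gatm, the first enzyme of creatine synthesis, rose by 1.05 and 1.02 (edgeR adjusted p = 0.00348 and 0.00473). The serotonin receptor gene Htr2a rose by 3.37 and 3.60 (edgeR adjusted p = 0.00397 and 0.0053). Under anti-PD1 the calls of Phlda2, Asb4, Gatm and Htr2a also survived the omission of any sample.

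Among the imprinted genes lower in A159V, Airn, Cd81, Dcn, Peg10, Plagl1 and Tspan32 kept their call in both comparisons whichever sample was left out, and Sgce and Slc22a18 did so under anti-PD1. H19, chosen for this difference, is not counted here. Plagl1, a zinc finger factor of the imprinted gene network, measured 9.29, 5.08 and 3.31 CPM in WT under IgG, 9.63, 8.05 and 6.9 in WT under anti-PD1, 2.01, 1.06 and 1.49 in A159V under IgG, and 1.36, 0.797 and 0.834 in A159V under anti-PD1. Groups of different genotype did not overlap, and Plagl1 fell by a log2 fold change of -1.96 under IgG and -3.03 under anti-PD1 (edgeR adjusted p = 0.00276 and 0.000294). Peg10, a gene derived from a retrotransposon, had 42 to 57.8 CPM in WT under IgG and 24.2 to 31.6 in A159V under IgG, and fell with log2 fold changes of -0.86 and -0.76 (edgeR adjusted p = 0.00316 and 0.00732). The proteoglycan gene Dcn fell by -1.35 and -1.86 (edgeR adjusted p = 0.00624 and 0.0012), and it also stands on the fibroblast list. Slc22a18 and Sgce were called under anti-PD1, at -1.63 and -0.69 (edgeR adjusted p = 0.00466 and 0.00664).

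Fewer imprinted genes were called in a fit without the libraries high in muscle markers, which also holds fewer samples. Without WT IgG 1, WT anti-PD1 2 and WT anti-PD1 3, 3 imprinted genes were called under anti-PD1: Plagl1, Cd81 and Tspan32 (edgeR adjusted p = 0.00255, 0.00399 and 0.0422). This fit holds a single WT anti-PD1 sample, assumed to vary like the other groups. All genes called numbered 624 in it against 3075. The other genes named above kept the direction of their log2 fold change while the adjusted p rose. The change was 1.85 for Asb4, 6.35 for Htr2a, -1.54 for Dcn, -2.01 for Airn, -0.89 for Peg10, -1.37 for Slc22a18 and -0.68 for Sgce (edgeR adjusted p = 0.0523, 0.0641, 0.0526, 0.0587, 0.0701, 0.172 and 0.132). It was smaller for Phlda2 (1.09) and Gatm (0.72), with edgeR adjusted p = 0.138 and 0.22. Under IgG it called 14 imprinted genes against 22.

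Of the 14 tested genes within 500 kb of H19, H19 left out, 1 was called higher and 7 lower in A159V under IgG, and 8 were called lower under anti-PD1, beside 15.6% and 12.4% of all genes under IgG and 11.2% and 10.2% under anti-PD1. Several of them overlap each other or are also on the imprinted or muscle lists. On the side of lower coordinates, Lsp1, an actin-binding protein of leukocytes, measured 36, 29.4 and 49.6 CPM in WT under IgG, 21.2, 22.3 and 41.5 in WT under anti-PD1, 6.66, 4.47 and 6.75 in A159V under IgG, and 5.01, 7.65 and 4.84 in A159V under anti-PD1. It fell by log2 fold changes of -2.69 under IgG and -2.28 under anti-PD1 (edgeR adjusted p = 0.000127 and 0.000344). Prr33, a noncoding transcript that overlaps the ends of Lsp1 and Tnnt3, fell by -3.64 and -2.73 (edgeR adjusted p = 0.00249 and 0.0127). Syt8, a synaptotagmin gene, fell under IgG by -2.22 (edgeR adjusted p = 0.00227), and its value under anti-PD1 was -0.42 (edgeR adjusted p = 0.498). The fast muscle troponin gene Tnni2 gave -3.001 and -3.38 (edgeR adjusted p = 0.0245 and 0.0139), and Tnnt3, on the skeletal muscle list, -1.97 and -6.17 (edgeR adjusted p = 0.263 and 0.00764). Without the 3 libraries high in muscle markers the anti-PD1 values were 0.23 for Tnni2, -0.94 for Tnnt3 and -1.68 for Prr33 (edgeR adjusted p = 0.914, 0.819 and 0.185). The call of Tnni2 under IgG was lost without WT IgG 1, A159V IgG 1 or A159V IgG 2 (edgeR adjusted p up to 0.0854). In voom the adjusted p of Tnni2 was 0.0938 under IgG and 0.166 under anti-PD1, and that of Tnnt3 under anti-PD1 was 0.172. The calls of Tnni2 and Prr33 under anti-PD1 were lost without WT anti-PD1 3 or A159V anti-PD1 3 (up to 0.0875 and 0.072). Mrpl23, the nearest tested gene to H19 and a mitochondrial ribosomal protein gene, had -0.35 and 0.05 (edgeR adjusted p = 0.272 and 0.89), and Dusp8 -0.29 and -0.42 (edgeR adjusted p = 0.281 and 0.137). The protease gene Ctsd had 0.35 and 0.10 (edgeR adjusted p = 0.0477 and 0.583), and its call was lost whichever of the 12 samples was left out (adjusted p up to 0.191).

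Beyond Igf2, the genes Ins2, Th and Ascl2 had 0, 10 and 2 counts over all samples. Further along, the tetraspanin genes were lower in A159V. Tspan32 measured 3.31 to 3.98 CPM in WT under IgG and 0.793 to 1.25 in A159V under IgG, with log2 fold changes of -1.93 and -2.70 (edgeR adjusted p = 0.00343 and 0.000476). Cd81 measured 244, 222 and 229 CPM in WT under IgG, 277, 245 and 328 in WT under anti-PD1, 135, 163 and 144 in A159V under IgG, and 105, 123 and 131 in A159V under anti-PD1. It fell by -0.65 and -1.24 (edgeR adjusted p = 0.00491 and 0.000117), with no overlap of genotypes. R74862 gave -0.49 and -0.88 (edgeR adjusted p = 0.16 and 0.0266), and its second call was lost whichever of the 6 anti-PD1 samples was left out (adjusted p up to 0.0904). Trpm5 gave -1.08 and -1.68 (edgeR adjusted p = 0.129 and 0.0338), with the second call lost without WT anti-PD1 2, WT anti-PD1 3, A159V anti-PD1 1, A159V anti-PD1 2 or A159V anti-PD1 3 (up to 0.163). Tssc4 gave -0.62 and 0.13 (edgeR adjusted p = 0.0166 and 0.626), with the first call lost without A159V IgG 1 or A159V IgG 2 (up to 0.0711). Without the 3 libraries high in muscle markers R74862 and Trpm5 under anti-PD1 and Tssc4 under IgG had log2 fold changes of -0.93, -1.13 and -0.50, and were not called (edgeR adjusted p = 0.226, 0.41 and 0.0862). Tspan32os, antisense to Tspan32, gave 0.83 and -0.62 (edgeR adjusted p = 0.294 and 0.379). Reads shared by Tspan32 and Tspan32os, by R74862 and Cd81, and by Trpm5 and Tssc4 cannot be told apart.

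**Figure D3:**
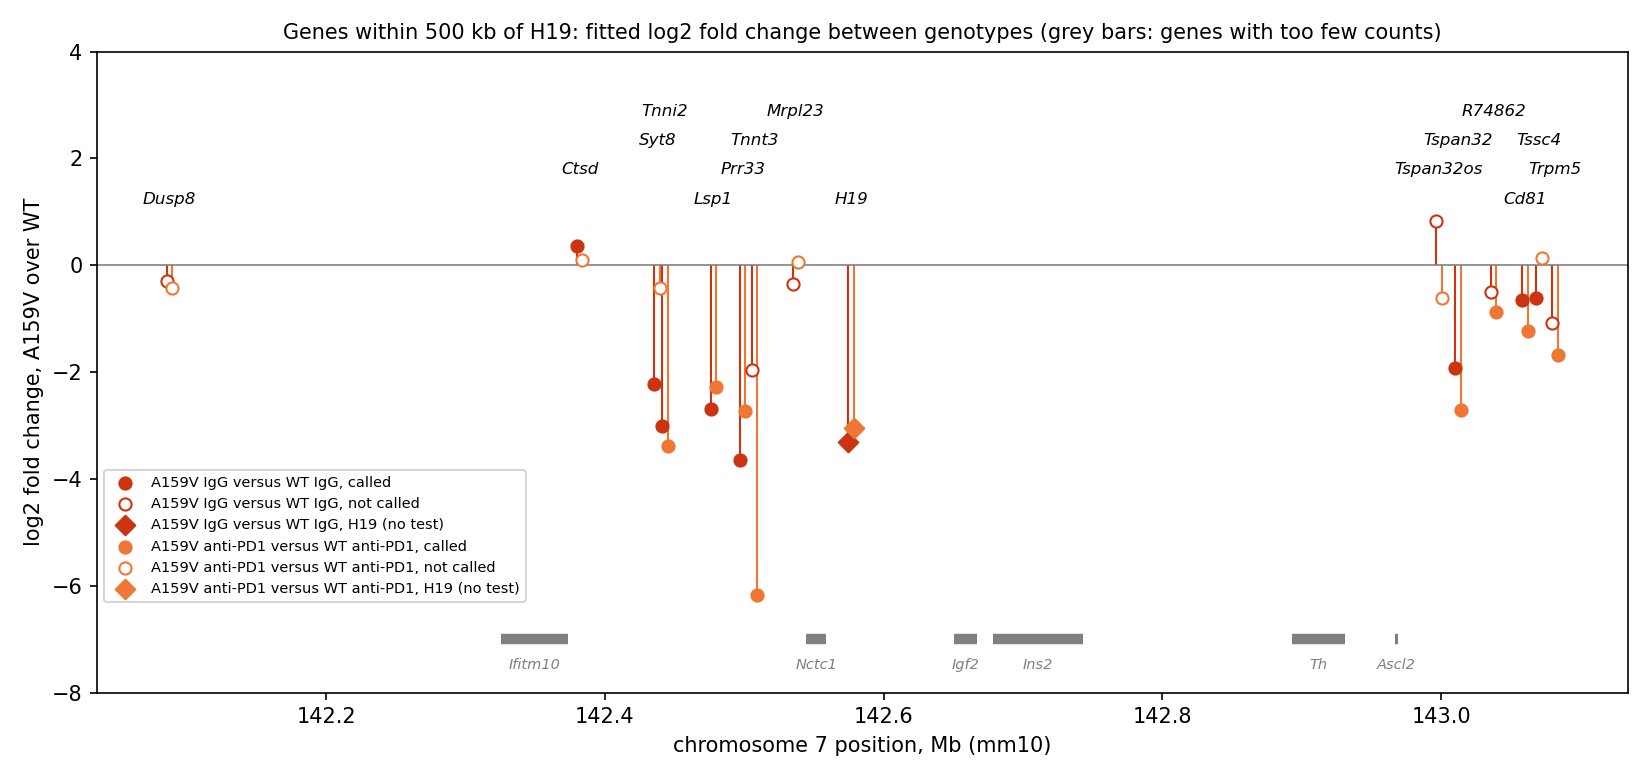
Fitted log2 fold change, A159V over WT (vertical axis), of genes within 500 kb of H19 against position on chromosome 7 in Mb (mm10), where filled circles were called, open circles were not, diamonds mark H19 (no test), and grey bars mark genes with too few counts. Lsp1 stood at -2.69 under IgG and -2.28 under anti-PD1.

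In the insulin-like growth factor axis, 17 of 24 listed genes were tested. Under IgG 5 were higher and 2 lower in A159V, and under anti-PD1 3 were higher and 5 lower, beside 15.6% and 12.4% of all genes under IgG and 11.2% and 10.2% under anti-PD1. The list had median log2 fold changes of 0.151 and -0.385 beside 0.018 and 0.0642 for all genes. The IGF2 mRNA-binding protein gene Igf2bp2 rose by 1.51 under IgG and 1.31 under anti-PD1 (edgeR adjusted p = 0.000113 and 0.000274). Its paralogs Igf2bp1 and Igf2bp3 rose under IgG by 3.39 and 1.21 (edgeR adjusted p = 0.000422 and 0.00212), and under anti-PD1 had values of 0.69 and 0.41 (edgeR adjusted p = 0.214 and 0.201). The binding protein gene Igfbp4 fell by -1.20 and -1.78 (edgeR adjusted p = 0.00182 and 0.000188), and Igfbp6 gave -0.51 and -0.72 (edgeR adjusted p = 0.0355 and 0.00816), the first lost without WT IgG 1, WT IgG 2, WT anti-PD1 2, A159V IgG 1, A159V IgG 2, A159V anti-PD1 2 or A159V anti-PD1 3 (adjusted p up to 0.117), and the second without the 3 libraries high in skeletal muscle markers (edgeR adjusted p = 0.197). Irs2, a docking protein of insulin and IGF1 receptors, was 0.219 to 0.251 CPM in WT under IgG, 1.86 to 2.95 in WT under anti-PD1, 0.213 to 0.384 in A159V under IgG and 0.0532 to 0.436 in A159V under anti-PD1. It rose with anti-PD1 in WT by a log2 fold change of 3.37 (edgeR adjusted p = 0.0166), the only call of the list for treatment. That call was lost without WT IgG 1, WT IgG 2, WT anti-PD1 1, WT anti-PD1 2 or WT anti-PD1 3 (adjusted p up to 0.0779). The difference between the responses of Irs2 was -3.52 (edgeR adjusted p = 0.135), so a difference of response was not shown. Between genotypes under anti-PD1 Irs2 fell by -3.09 (edgeR adjusted p = 0.000778), a call kept whichever sample was left out and lost without the 3 libraries high in skeletal muscle markers (-2.70, edgeR adjusted p = 0.0534).

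Of 27 factors that maintain imprints or insulate enhancers, 25 were tested, with 4 higher and 1 lower in A159V under IgG and 3 higher and 1 lower under anti-PD1. Of all genes, 28.0% were called under IgG and 21.4% under anti-PD1, larger shares than in this list. The median log2 fold changes of the list were 0.285 and 0.268. Dnmt3b, a DNA methyltransferase, rose under IgG by a log2 fold change of 0.82 (edgeR adjusted p = 0.00405), and Parp1 by 0.52 (edgeR adjusted p = 0.00713). Both calls held whichever sample was left out, which no other call of the list did. That of Parp1 was lost without the 3 libraries high in skeletal muscle markers (0.40, edgeR adjusted p = 0.0583) and in a fit to the IgG groups alone (edgeR adjusted p = 0.124). The maintenance methyltransferase gene Dnmt1 had 0.51 and 0.46 (edgeR adjusted p = 0.0277 and 0.0508), and the first call was lost without WT IgG 1, WT IgG 2, A159V IgG 2 or A159V IgG 5 (up to 0.118), and with RLE or upper-quartile scaling. Ctcf, whose product binds between H19 and Igf2, had 0.28 and 0.16 (edgeR adjusted p = 0.174 and 0.475). DNA methylation and protein binding were not analysed here.

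In a list of 12 genes around let-7, a small RNA known to be bound by H19, and of oncofetal genes, 9 were tested. Under IgG 4 were higher in A159V and 1 lower, and under anti-PD1 3 and 1, beside 15.6% and 12.4% of all genes under IgG and 11.2% and 10.2% under anti-PD1. The Igf2bp genes are shared with the preceding list. Arid3a, a DNA-binding factor of fetal tissue, rose by log2 fold changes of 0.87 and 0.64 (edgeR adjusted p = 0.000485 and 0.00333), the second value being 0.62 without the 3 libraries high in skeletal muscle markers (edgeR adjusted p = 0.118). Lin28b, which blocks the maturation of let-7, fell by -1.07 under IgG (edgeR adjusted p = 0.00443) and gave -0.73 under anti-PD1 (edgeR adjusted p = 0.0308), where the call was lost whichever of the 6 anti-PD1 samples was left out (up to 0.131). The alpha-fetoprotein gene Afp gave 1.08 under anti-PD1 (edgeR adjusted p = 0.024), lost without WT anti-PD1 1, WT anti-PD1 2, WT anti-PD1 3, A159V anti-PD1 1 or A159V anti-PD1 3 (up to 0.0991). Levels of let-7 itself were not analysed here.

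Over the 12 samples, genes with a close positive correlation to H19 in log2 CPM included Pacs1, Prrx1 and Six3os1. The samples form separate clusters by genotype, so no value across all samples is given. Within the 6 WT samples, which share a genotype and span both treatments, Pearson's r with H19 was 0.86, 0.873 and 0.966 in that order. Within the 6 A159V samples it was 0.803, 0.576 and -0.339. These samples also entered the ranking, so the values describe the genes that it picked. The closest negative correlations were those of Frmd4b, Otud3, Ass1, Tatdn2 and Trim10, with r of -0.8, -0.834, -0.724, -0.648 and -0.769 within WT and -0.622, -0.647, -0.847, -0.8 and -0.68 within A159V.

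Of the remaining marker lists, 3 of 8 endothelial markers were tested, with 1 higher in A159V under IgG (Tie1, 2.56, edgeR adjusted p = 0.00541) and 2 lower under anti-PD1, neither of which kept its call in every fit without 1 sample. For these lists, the shares of all genes called were 15.6% higher and 12.4% lower under IgG, and 11.2% higher and 10.2% lower under anti-PD1. Of 10 skeletal muscle markers 6 were tested, with 0 called under IgG and 5 lower under anti-PD1, of which Tnnt3 kept its call in each such fit and none did without the 3 libraries highest in the sum. Fabp4 was the tested gene of 6 adipocyte markers and rose by 2.40 and 2.36 (edgeR adjusted p = 0.00034 and 0.00044). Among 6 keratinocyte markers Dsp fell under anti-PD1 by -2.92 (edgeR adjusted p = 0.00141), and the epithelial marker Lgals4 fell under IgG by -2.29 (edgeR adjusted p = 0.00297). Of 16 leukocyte markers 10 were tested, with 1 higher and 2 lower in A159V under IgG and 5 lower under anti-PD1, beside the same shares of all genes. Ptprc, which marks leukocytes, measured 0.929, 0.184 and 2.81 CPM in WT under IgG, 9.01, 14.2 and 7.46 in WT under anti-PD1, and 0 to 0.278 in A159V samples. It fell in A159V under anti-PD1 by a log2 fold change of -6.25 (edgeR adjusted p = 0.000357). Cd68, the leukocyte marker called higher in A159V under IgG, rose by 0.81 (edgeR adjusted p = 0.00826). Its call held whichever sample was left out and was lost in a fit to the IgG groups alone (edgeR adjusted p = 0.0652). Under anti-PD1 5 of the 10 tested markers had a positive sign. The leukocyte sum was higher in each A159V IgG sample than in each WT IgG sample, and the genotypes overlapped under anti-PD1. Cd68 made up most of each IgG sum, at 24.3, 25.3 and 20 CPM in WT and 38.4, 33.6 and 50.1 in A159V. Ptprc did not follow the sum, at 0, 0.096 and 0.213 CPM in the A159V IgG samples. The sum is therefore mainly a reading of Cd68. With anti-PD1 in WT, 2 leukocyte markers were called higher, Cd8a (4.53, edgeR adjusted p = 0.0301) and Itgam (2.44, edgeR adjusted p = 0.0439), beside 0.628% of all genes. Both calls were lost without WT IgG 1, WT IgG 2, WT anti-PD1 1, WT anti-PD1 2, WT anti-PD1 3 or A159V anti-PD1 3, and that of Itgam also without A159V IgG 2, A159V anti-PD1 1 or A159V anti-PD1 2 (edgeR adjusted p up to 0.103 for Cd8a and 0.145 for Itgam). The part of these cells in the values of the imprinted genes, and in those of Igf2r and Irs2 with anti-PD1 in WT, was not tested.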

How the data were processed

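Raw counts per gene were deposited by the authors, who used STAR to align paired reads (mm10), Samtools to make bam files and summarizeOverlaps to count. The annotation, strand setting and overlap mode of the counting are not stated. Ensembl identifiers were matched to GENCODE M21, which gave symbols for 31980 of 33217 identifiers. Counts were scaled by TMM, filtered with filterByExpr (14340 genes) and fitted in edgeR 4.0.16 (R 4.3.3) with the quasi-likelihood test, the 4 groups as the model (8 residual degrees of freedom) and Benjamini-Hochberg adjustment over all tested genes. Log2 CPM used a prior count of 2, and CPM per kilobase used the union of annotated exons. DESeq2 1.42.0, voom in limma 3.58.1, other scalings, filters, samples in the fit, a replicate block and each sample left out were alternatives. The replicate numbers of WT IgG 4 and A159V IgG 5 occur in no other sample. The block therefore takes both out of the comparisons and is not independent of the fits without them. A fit without the 3 libraries highest in skeletal muscle markers was chosen after seeing the data.

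The genes and lists were chosen with earlier results of these data known. The genes named are the 9 chosen genes, imprinted genes called between genotypes (the 10 with the smallest p in each direction where over 20), genes of the other lists called in any comparison (the 4 with the smallest p in each direction where over 8), tested genes within 500 kb of H19, the 5 genes with the highest and the 5 with the lowest Pearson's r with H19, and Rac1. Some genes that this rule names are not reported here. MicroRNA sequences were taken from RefSeq. Plots used matplotlib 3.10.9 in Python 3.11.15, and tables numpy 2.4.6 with pandas 2.3.3.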

Additional observations from a re-analysis of the deposited data

How the results depend on the processing

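For the 9 genes, 596 alternative values over 30 results were computed, of which 540 kept the direction and the side of the threshold. Of the rest, 23 turned direction in 10 results, 14 passed the threshold in 5, 17 no longer passed it in 4 and 2 values without a test moved in 2. For other named genes, 1988 of 2297 values kept both, 293 no longer passed in 57 results, 4 passed in 3 and 12 turned direction in 6. The cause of these changes was not tested.

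Genes called between genotypes under IgG numbered 1399 in a fit to those groups alone, 2225 without the 3 libraries highest in skeletal muscle markers (chosen after seeing the data, with the lone WT anti-PD1 sample assumed to vary like the other groups), and 2578 (without A159V IgG 2) to 4717 (without A159V IgG 5) with single samples left out. For the imprinted list the counts were 12 with at least 10 counts in every sample, 11 with those groups alone, 14 without the 3 libraries and 13 to 23 with single samples left out. Under anti-PD1 the genes called were 2014 with at least 10 counts in every sample, 5018 with the replicate block, 5320 with those groups alone, 624 without the 3 libraries and 1519 (without WT anti-PD1 3) to 4134 (without WT IgG 1) with single samples left out, and 3 imprinted genes were called without the 3 libraries. Higher and lower calls under IgG were 2231 and 1779 with TMM, 1680 and 2052 with RLE, and 1337 and 2313 with upper quartiles. Under anti-PD1 they were 1613 and 1462, 1123 and 1672, and 931 and 1788.

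For anti-PD1 versus IgG in WT, calls numbered 771 with no filter, 25 with at least 10 counts, 1478 by DESeq2, 188 by voom, 4650 with the replicate block, 0 with those groups alone, 0 without the 3 libraries and 1 (without WT IgG 1) to 3458 (without WT IgG 4) with single samples left out. Imprinted genes numbered 3 with no filter, 4 by DESeq2, 2 by voom, 16 with the replicate block and 0 to 13 with single samples left out. In A159V DESeq2 called 2 genes. For the difference of the responses, calls numbered 0 with upper quartiles, 37 with no filter, 295 by DESeq2, 2760 with the replicate block, 0 without the 3 libraries and 0 to 1182 with single samples left out. Imprinted genes numbered 1 with no filter, 2 by DESeq2, 10 with the replicate block and 0 to 5 with single samples left out. No pairing by replicate number was detected. The correlation of the deviations of same-numbered samples ran from -0.178 to 0.205 over 13 pairs (median -0.0238), and 3 exceeded 0.1. Over 41 pairs of different number it ran from -0.224 to 0.229 (median 0.000664), and 9 exceeded 0.1. With groups this small the check cannot exclude pairing. WT IgG 4 and A159V IgG 5 have no same-numbered sample, so the replicate block takes both out of the comparisons.

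With single samples left out, the log2 fold change of H19 ran from -4.46 to -2.53 between genotypes under IgG, from -1.07 to 0.0478 for anti-PD1 in WT, from -0.83 to 0.68 in A159V and from -0.52 to 1.42 for the difference of the responses. It was -0.66 for that difference with the replicate block. Under anti-PD1 it was -2.43 without the 3 libraries. In the fit to the groups compared alone, Igf2r was 1.12 under IgG and -0.51 under anti-PD1, and Grb10 was 1.37 and 0.94. For anti-PD1 in WT, Igf2r was 1.30 with no filter, 1.30 by DESeq2, 1.41 by voom, 1.60 with the replicate block and 1.00 to 1.65 with single samples left out. The difference of its responses was -1.58 with no filter, -1.61 by DESeq2, -1.78 with the replicate block and -1.95 to -1.32 with single samples left out. Grb10 ran from 1.12 to 2.19 under IgG, from 0.89 to 1.22 under anti-PD1, and from -0.24 to 0.0475 for anti-PD1 in A159V.

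Cdkn1c was -0.30 under IgG with the replicate block and ran from -0.21 to 0.73 with single samples left out, and from -0.10 to 0.55 under anti-PD1. The difference of its responses was 0.55 with the replicate block, 0.0147 without the 3 libraries and -0.57 to 0.41 with single samples left out. Meg3 under IgG was -2.54 by voom, -1.76 without the 3 libraries and -4.06 to -1.77 with single samples left out. It ran from -2.40 to -1.05 under anti-PD1, from -1.10 to 1.56 for anti-PD1 in WT, where voom gave 0.23, and from -0.25 to 2.42 for the difference of the responses. Peg3 under anti-PD1 was -2.72 without the 3 libraries and -3.31 to -1.86 with single samples left out, and for anti-PD1 in A159V it ran from -1.21 to 0.25.

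Among other genes under anti-PD1, values without the 3 libraries were 0.23 for Tnni2, 0.0287 for Syt8, 2.67 for Ckm, 0.94 for Acta1 and 6.03 for Myh4. Mrpl23 was -0.0131 with RLE, -0.0421 with upper quartiles, -0.0282 with at least 10 counts, -0.0134 by DESeq2, -0.026 with those groups alone and -0.0594 to 0.14 with single samples left out. With RLE scaling 0 of the group means of CPM moved by over 1 SD, and with the longest transcript as length 8 of those per kilobase did. Depth limits Igf2, Mest, Dlk1 and Peg3, which had few or no counts.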
